A study of Rattus norvegicus with 23 samples.

Results

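The 16 libraries described here are the 8 with the highest and the 8 with the lowest share of rno-miR-34c-5p among the miRNAs of rat sperm, taken from the 23 libraries of the series whatever the animal had breathed. The share is the miR-34c-5p value divided by the summed miRNA values of the library. Sperm came from the cauda epididymidis of male Long-Evans rats that had breathed filtered air (7 libraries), 0.4 ppm ozone (8 libraries) or 0.8 ppm ozone (8 libraries) for 4 h on 3 days of one week and 2 days of the next. Chamber means were 0.401 and 0.798 ppm. The study asked what ozone, an oxidant air pollutant, does to sperm motility and sperm noncoding RNA, while the sets used here cut across its treatments and were defined from the measured share. The labels give no age of the rats and name no collection day or sequencing pool.

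miR-34b, miR-34c and miR-449a share a seed, the bases that pair with a target, and accumulate in male germ cells from meiosis onward, so that miR-34c is among the leading miRNAs of mature sperm. Sperm also carry fragments of tRNA, and their small RNA is remodelled as they pass along the epididymis and take up vesicles shed by its epithelium. let-7, miR-10 and miR-200 miRNAs are widespread in differentiated somatic cells, miR-200 above all in epithelia, and the miR-17-92 clusters are best known from proliferating cells.

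The mature sequences below carry the comparison: the seed family of the ranking miRNA, 6 of the 7 miRNAs whose levels lay apart between the sets, some of those that differed most, and 1 let-7 that differed from its seed mates. Sequences are from RefSeq (GRCr8), which held 380 of the 407 measured miRNAs, and capitals mark the seed, bases 2 to 8 from the 5′ end.
rno-miR-34c-5p: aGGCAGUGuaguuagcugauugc
rno-miR-34b-5p: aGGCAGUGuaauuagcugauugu
rno-miR-449a-5p: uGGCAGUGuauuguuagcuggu
rno-miR-34a-5p: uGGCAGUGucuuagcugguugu
rno-miR-34c-3p: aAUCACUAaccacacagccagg
rno-miR-34b-3p: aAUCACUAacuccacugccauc
rno-miR-17-5p: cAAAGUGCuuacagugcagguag
rno-miR-20a-5p: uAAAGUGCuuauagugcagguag
rno-miR-93-5p: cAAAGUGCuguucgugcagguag
rno-miR-19a-3p: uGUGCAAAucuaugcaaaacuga
rno-miR-19b-3p: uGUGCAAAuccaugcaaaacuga
rno-let-7b-5p: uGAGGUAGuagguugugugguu
rno-let-7c-5p: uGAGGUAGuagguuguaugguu
rno-let-7g-5p: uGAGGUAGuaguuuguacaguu
rno-miR-10a-5p: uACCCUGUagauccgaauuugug
rno-miR-146a-5p: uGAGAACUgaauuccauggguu
rno-miR-872-5p: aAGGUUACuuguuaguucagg
rno-miR-423-5p: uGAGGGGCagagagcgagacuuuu
rno-miR-25-5p: aGGCGGAGacacgggcaauugc
The hairpins of Mir34b and Mir34c lie 441 bases apart on the minus strand of chromosome 8 (60306609 to 60306692 and 60306091 to 60306167, GRCr8), while Mir449a is on chromosome 2 (46403910 to 46404000) and Mir34a on chromosome 5 (165815952 to 165816053).

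In the 8 high-share libraries miR-34c-5p made up 27.8% to 32.4% of the miRNA table (29.5 ± 1.58, mean ± SD), and in the 8 low-share libraries 13.28% to 22.05% (18.9 ± 3.43). The 7 libraries between them held 23.0% to 27.7%. The scaled miR-34c-5p value itself ran from 172645 to 221099 (median 182200.5) in the high set and from 90352 to 144909 (median 111827.5) in the low set, 1.68-fold higher in the mean. These values chose the sets and are given as a description only. The last library inside the high set held 27.83% and the first outside it 27.74%, and at the lower boundary the values were 22.05% inside and 23.04% outside. Both boundaries thus cut a continuous range, whereas 2 libraries of the low set, 0.4 ppm replicate 5 at 13.3% and 0.8 ppm replicate 7 at 14.2%, lay below the next library at 18.5%.

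The sets were not balanced for treatment. The high set held 4 air and 4 0.8 ppm libraries and none of 0.4 ppm, while the low set held 1 air, 4 0.4 ppm and 3 0.8 ppm libraries. The fits were therefore repeated with treatment as a covariate, and 0.8 ppm, with 4 high and 3 low libraries, was also compared within itself. The column names carry a further number that runs from 1 to 12 and mostly occurs on 2 libraries. In the order of the miRNA table the first 11 columns hold 11 different numbers and the next 12 columns 12, and no label says what these runs of columns stand for. The first run held 3 high-share and 6 low-share libraries and the second 5 and 2, so the runs were not balanced either. With the run as a covariate 58 tRNA, 70 piRNA and 7 Ensembl rows passed in limma, and 49 of 68, 25 of 29 and 6 of 6 of the rows called without it kept their call. Within the first run alone 12 piRNA rows passed in limma, but no tRNA or Ensembl row, where 72 and 49 had an unadjusted p under 0.05. Within the second run none of the 3 tables had a row that passed in limma, and 47 tRNA, 1512 piRNA and 48 Ensembl rows had an unadjusted p under 0.05. The 68 called tRNA rows kept their sign in 68 cases within the first run and in 67 within the second, against 87.2% and 70.7% of all rows. Both runs are parts of the 16 libraries that chose these rows, so the sign counts are no separate evidence.

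**Figure D1:**
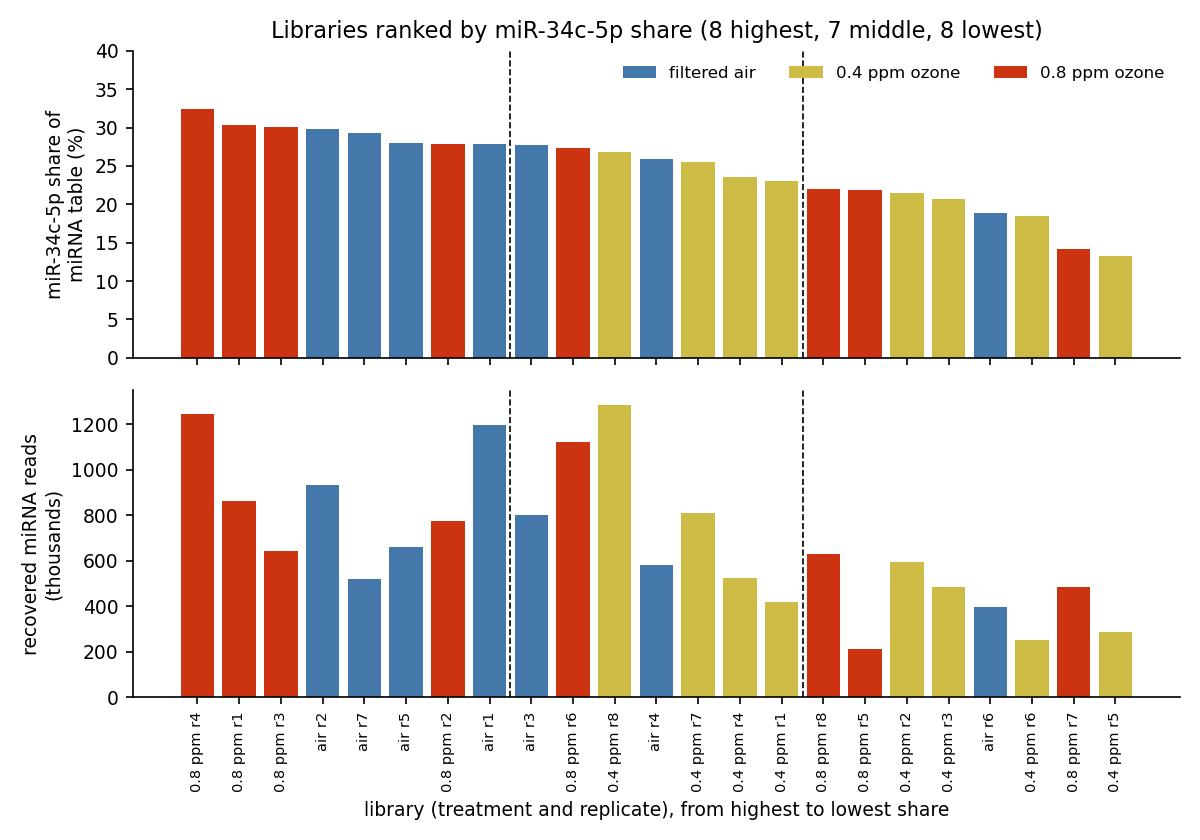
Share of miR-34c-5p in the miRNA table (upper panel, %) and recovered miRNA reads (lower panel) in the 23 libraries, ordered from highest to lowest share and coloured by treatment, with dashed lines between the 8 highest, the 7 middle and the 8 lowest. Shares fall without a step from 32.4% to 18.5% before the last 2 libraries, and reads reach 1245601 in the high set but 628271 in the low set.

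Depth differed with the sets. Whole reads recovered from the miRNA values ran from 518207 to 1245601 in the high set (855115 ± 261655, mean ± SD) and from 213839 to 628271 in the low set (417761 ± 156426). The difference of the means was 437354 reads. It was 1 of the 16 library measures compared by exact permutation over the 12870 ways to divide the 16 libraries. These reads come from the table that chose the sets, so nothing is read from its test. Reads recovered from the tRNA table differed less, 393752 ± 56282 against 298390 ± 78424 (exact permutation, adjusted p = 0.040), and that call was lost in 12 of 16 fits without 1 library. A library of the high set held 2.14 ± 0.445 miRNA reads for each tRNA read and one of the low set 1.38 ± 0.281. Relabelling within treatment allowed 175 divisions, and the tRNA read total did not pass there (exact permutation, adjusted p = 0.14). No sperm or leukocyte mRNA from the marker lists was a row of the transcript table, and of the epididymal list Lcn5, a secreted lipocalin, was the 1 measured, at a median of 70.8 in the high set and 100.7 in the low set (limma adjusted p = 0.78), so the cell make-up was described from miRNAs.

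Within the miRNA table the high-share libraries held more of the other miR-34/miR-449 arms and of the miR-17-92 family, and less of let-7, of the epithelial miR-200 miRNAs, of miR-10 and of the miR-99 to miR-125 group. Since every miRNA enters the sum that defines the share, these are descriptions without a test. Over 406 miRNAs the median log2 difference, high minus low, was 0.12. The limma fit put 26 above (6.4% of the rows) and 29 below (7.14%) at an adjusted p of 0.05, 13.5% together, and nothing is read from that count. The libraries of the sets did not overlap for 7 miRNAs (1.72% of the rows), with 4 above (0.985%) and 3 below (0.739%).

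The miR-34/miR-449 arms were higher in 6 of 6 cases, with a median difference of 0.70 on the log2 scale. miR-34b-5p, encoded beside miR-34c, ran from 13446 to 21234 (median 15534) in the high set and from 4360 to 9529 (median 7217) in the low set. The sets did not overlap, and the 7 middle libraries had a median of 11859 between them. Its log2 difference was 1.29 ± 0.19 (SE). miR-449a-5p, from another chromosome but with the same seed, ran from 36369 to 51588 in the high set and from 20475 to 43719 in the low set, with a difference of 0.65 ± 0.17. Here 1 low-share library reached into the high range.

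The arms of the same hairpins did not differ alike. miR-34b-3p, the opposite arm of miR-34b and more abundant than miR-34b-5p in both sets, had medians of 45223 and 38454 and a difference of 0.32 ± 0.16. miR-34c-3p had medians of 2644 and 1836 and a difference of 0.76 ± 0.22, which turned to -0.03 with miRNA read depth as a covariate. With that covariate miR-34b-3p turned to -0.13, miR-34b-5p had 1.13 and miR-449a-5p 0.45, and the list median was 0.45 (0.70 with treatment, 0.80 with the column run). miR-34a-5p had medians of 44.1 and 31.3 with 0.57 ± 0.24. Summed without miR-34c-5p, the family took 17.2% ± 1.35 of the table in the high set and 12.5% ± 2.25 in the low set (SD, n = 8 each). That share came to 15.0% to 18.9% against 10.0% to 16.0%, so that the ranges overlapped.

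The other germ-cell list was less uniform. Of 27 arms of the X-linked miR-506 family, whose clusters are expressed mainly in testis, 20 were higher in the high set with a median difference of 0.25. In its largest cluster (X, 150462896 to 150488242, GRCr8) 12 of 16 measured arms were higher. The 16 include arms of miR-3551 and miR-3580, which are outside the 27. miR-743b-3p ran from 4171 to 7036 in the high set and from 2436 to 4569 in the low set (0.57 ± 0.17), and 7 of 8 high-share libraries lay above every low-share library. miR-881-3p went the other way, with medians of 1920 and 2492 (-0.48 ± 0.23), and the sets overlapped widely. The summed family took the same part of the table in both sets, 2.68% ± 0.262 and 2.68% ± 0.606. For reference, 45 of 70 measured X-linked miRNAs and 167 of 309 autosomal ones were higher in the high set.

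Of 13 measured arms of the miR-17-92 clusters 10 were higher, with a median of 0.56, and all 5 measured miRNAs with the seed AAAGUGC were higher (median 0.86). miR-19a-3p, a member of the miR-17-92 transcript, ran from 227 to 587 (median 387) in the high set and from 98.2 to 277 (median 152) in the low set. The difference was 1.30 ± 0.23, and 7 of 8 high-share libraries lay above the low range. miR-17-5p and miR-20a-5p, which share a seed, differed by 0.95 ± 0.22 and 0.86 ± 0.25. With miRNA read depth as a covariate these were 0.33 and -0.05, and the list median was 0.23 (0.66 with treatment, 0.69 with the column run). miR-92a-3p, processed from the same transcript, was lower (-0.42 ± 0.18, medians 453 and 572). The family is minor here, at 0.606% ± 0.141 of the table against 0.398% ± 0.0974.

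**Figure D2:**
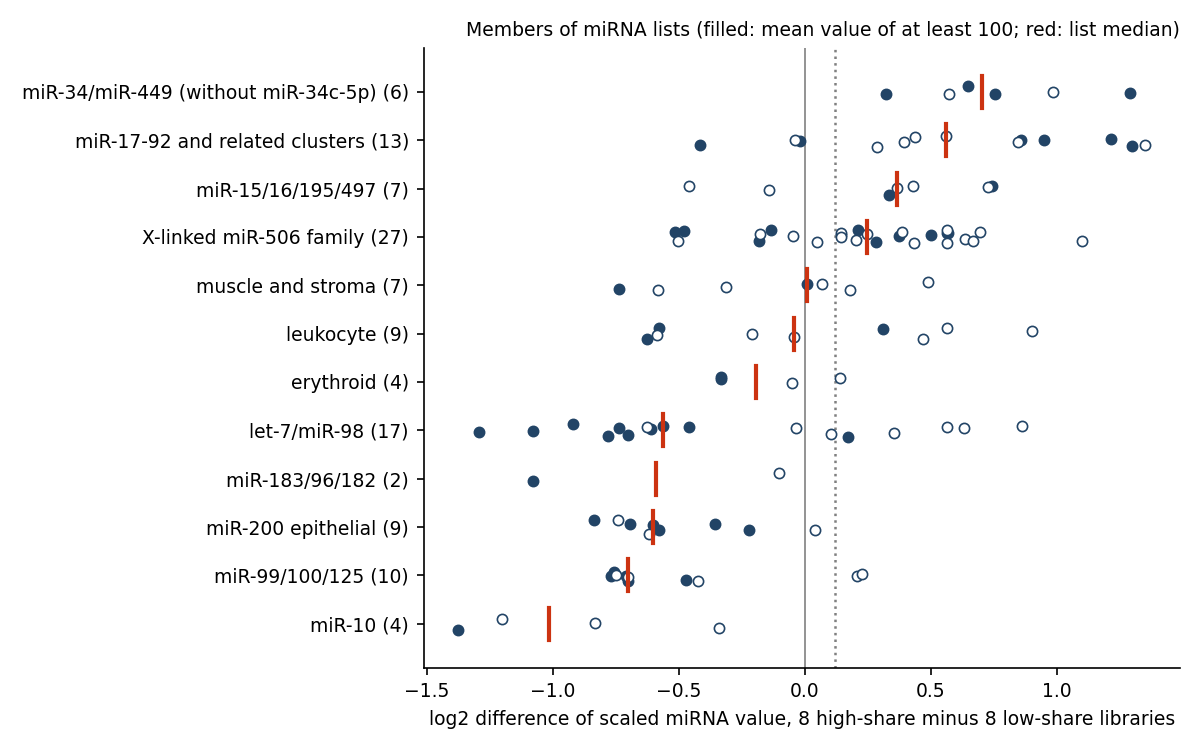
Log2 difference of the scaled value (high-share minus low-share libraries) for each measured member of 12 miRNA lists, with the number of members in brackets, filled points for members with a mean value of at least 100 and red bars at list medians. List medians lie between -1.02 (miR-10) and 0.70 (miR-34/miR-449), and the dotted line marks the median of 0.12 over all miRNAs.

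let-7 miRNAs were lower as a group of 5p arms rather than throughout the family. Of the 9 measured miRNAs with the let-7 seed GAGGUAG, 8 were lower, with a median of -0.74, and the exception was let-7g-5p (0.17 ± 0.16). let-7c-5p ran from 4435 to 13635 (median 7602) in the high set and from 9342 to 22192 (median 16794) in the low set, and 6 of 8 high-share libraries lay below every low-share library. Its difference was -1.08 ± 0.24, and let-7b-5p, which differs from it by 1 base outside the seed (A17G, positions counted from the 5′ end of let-7c-5p), had -1.29 ± 0.29. Summed, let-7 and miR-98 took 6.81% ± 1.18 of the table against 11.3% ± 1.46, and these ranges (5.21% to 8.70% and 8.93% to 12.9%) did not meet. Over all 17 arms of let-7 and miR-98 the median was -0.56, and it was -0.25 with miRNA read depth, -0.63 with treatment and -0.46 with the column run as a covariate.

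miR-10a-5p, transcribed from within a Hox cluster, was the most abundant miRNA with a large difference. It ran from 9878 to 22564 (median 12616) in the high set and from 21448 to 71043 (median 35078) in the low set, a log2 difference of -1.38 ± 0.23. The highest value, 71043, was in 0.4 ppm replicate 5, the library with the lowest miR-34c-5p share. miR-10b-5p stood at a few units (medians 4.41 and 15.5). The 3 miRNAs with the miR-125 seed CCCUGAG were all lower, with a median of -0.71, and 8 of 10 arms of the miR-99, miR-100 and miR-125 list were lower. miR-182, of the sensory miR-183 cluster, had medians of 1532 and 3113 (-1.08 ± 0.22).

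Markers of other cells moved with the sets to different degrees, and their part in the results was not tested. In bulk libraries such as these, fewer cells of a type and less RNA per cell cannot be told apart. Of the 9 epithelial miR-200 arms 8 were lower in the high set (median -0.60), and their summed share was 0.717% to 1.48% there and 1.08% to 3.27% in the low set. miR-141-3p ran from 1922 to 5541 against 3384 to 9112, and 7 of 8 high-share libraries lay below every low-share library. miR-200a-3p, with medians of 2287 and 3662, differed by -0.84 ± 0.26. When miRNA read depth was a covariate, miR-200a-3p differed by -0.06 and the list median was -0.20 (-0.52 with treatment, -0.68 with the column run).

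Leukocyte miRNAs split, with 4 of 9 higher and 5 lower (median -0.04). miR-146a-5p, induced by NF-kB signalling in immune and epithelial cells, ran from 496 to 744 (median 644) in the high set and from 798 to 1349 (median 941) in the low set. The sets lay apart (-0.63 ± 0.16). miR-142-5p, restricted to blood cells, had medians of 341 and 267 (0.31 ± 0.24), in the opposite direction and with overlapping sets. The list summed to 1.75% to 2.83% of the table in the high set and 2.14% to 6.43% in the low set. Most of each sum came from a single member, miR-146b-5p, at 11056 to 16373 in the high set and 9612 to 45688.5 in the low set. Of 4 erythroid arms 3 were lower (median -0.19, sums of at most 0.206% in any of the 16 libraries). Of 7 muscle and stroma arms 3 were lower (median 0.01), and their sum reached 11.6% in a low-share library against at most 2.78% in the high set. Most of that came from miR-143-3p, a smooth muscle miRNA, at 76738 in 0.8 ppm replicate 7 against 9545 to 30483 in the other low-share libraries.

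Other miRNAs on which the sets did not overlap were miR-301a-3p (0.80 ± 0.18), miR-93-5p (0.65 ± 0.15) and miR-872-5p (0.56 ± 0.16) above, and miR-423-5p (-0.90 ± 0.18) and miR-25-5p (-1.11 ± 0.21) below. The last 4 of these fall outside the naming rule and were singled out after their values were seen. miR-93-5p and miR-25-5p come from 1 cluster on chromosome 12 (22156641 to 22156930, GRCr8), yet miR-93-5p ran higher, from 3646 to 4797 against 2130 to 2971, and miR-25-5p lower, from 29.5 to 50.7 against 54.2 to 129. The other measured arms of the cluster were higher, miR-25-3p by 0.42 ± 0.17 (medians 20492.5 and 14987.5) and miR-93-3p, at a few units, by 1.27 ± 0.45, so that 3 of 4 arms were above 0. Among the most abundant miRNAs, miR-26a-5p and miR-191a-5p had close medians in both sets (17944 and 16998, and 17988 and 19597).

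**Figure D3:**
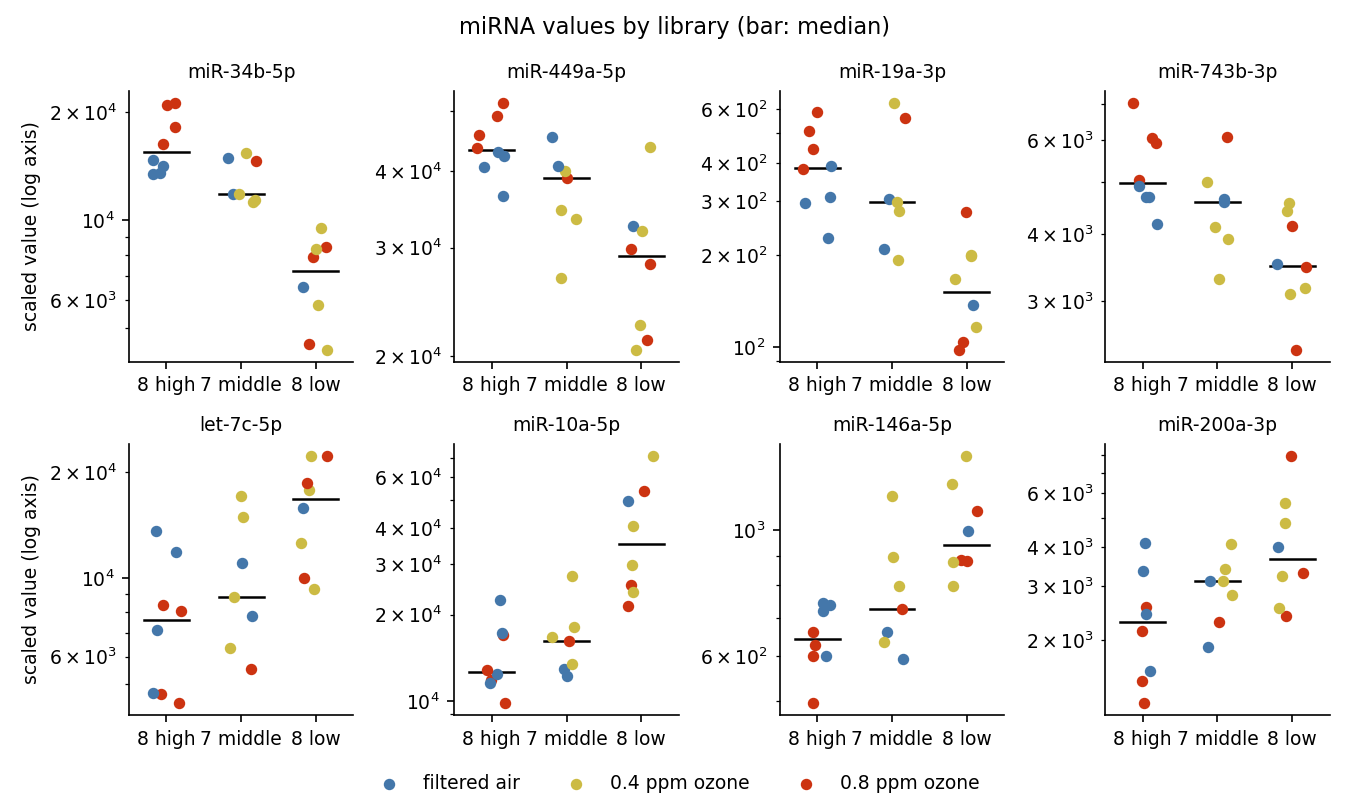
Scaled values (log axis) of 8 miRNAs in the 8 high-share, 7 middle and 8 low-share libraries, 1 point a library coloured by treatment, with bars at medians. miR-34b-5p lies wholly above and miR-146a-5p wholly below the low-share libraries, and the middle libraries have medians of 11859 and 727 for them.

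tRNA rows formed the first table that the ranking did not use, and 35 of 273 were higher (12.8%) and 33 lower (12.1%) in the high-share libraries (limma with Benjamini-Hochberg adjustment at 0.05, 24.9% of the rows together). On no row did the libraries of the sets lie apart. The median log2 difference over all rows was -0.07. The rows that rose were mainly those for arginine (ACG, TCT and TCG), tyrosine, isoleucine, asparagine and serine (AGA), and the rows that fell mainly those for glutamate (CTC), histidine and glycine (GCC). Several of these rows share reads, because genes of an anticodon are near-identical, so that a count of rows can hold one signal more than once.

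tRNA-iMet-CAT-1-3, a gene for the initiator tRNA that starts translation, had the largest rise. It ran from 78.0 to 162 (median 109) in the high set and from 30.1 to 95.6 (median 52.8) in the low set, and 6 of 8 high-share libraries lay above every low-share one. The log2 difference was 1.03 ± 0.22 (SE, limma adjusted p = 0.0045), and it passed with treatment as a covariate (1.19, limma adjusted p = 0.016). Rows of this tRNA diverged: 1-2, 1-3 and 1-5 rose, while the other 5 of 8 had differences of -0.60 to -0.28 that did not pass. In gene names of this form a shared first number denotes one mature sequence, so that the rows whose names begin with iMet-CAT-1 differ outside the mature tRNA. The rows of the first kind averaged 102 to 113 in the high set and those of the second 22.9 to 27.9, and the sources used here do not say how reads were divided among them.

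Arginine rows were divided by anticodon. Of these 3 of 3 ACG rows were called higher (median 0.90), 4 of 6 TCT rows (median 0.66), 2 of 5 TCG rows and 1 of 3 CCG rows, while of 7 CCT rows 1 was called lower and none higher (median -0.15), and 1 of 3 tRX-Arg rows was called lower. tRNA-Arg-TCG-4-1 ran from 24.8 to 48.3 in the high set and from 9.68 to 34.7 in the low set (0.93 ± 0.25, limma adjusted p = 0.014; 1.30 and 0.016 with treatment as a covariate). Serine AGA rows had 5 of 7 called (median 0.63), asparagine GTT 5 of 13 with all 13 above 0 (median 0.49), isoleucine AAT 3 of 8 with all 8 above 0 (median 0.60) and tyrosine GTA 2 of 3 (median 0.78). tRNA-Trp-CCA-6-1 ran from 107 to 190 in the high set, where 4 of 8 libraries lay above every low-share one (0.92 ± 0.22, limma adjusted p = 0.0068), and it did not pass with treatment as a covariate (0.89, limma adjusted p = 0.066). These rows were low in the table: the ACG rows together held 0.0563% ± 0.0193 of it in the high set and 0.0251% ± 0.00878 in the low set.

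**Figure D4:**
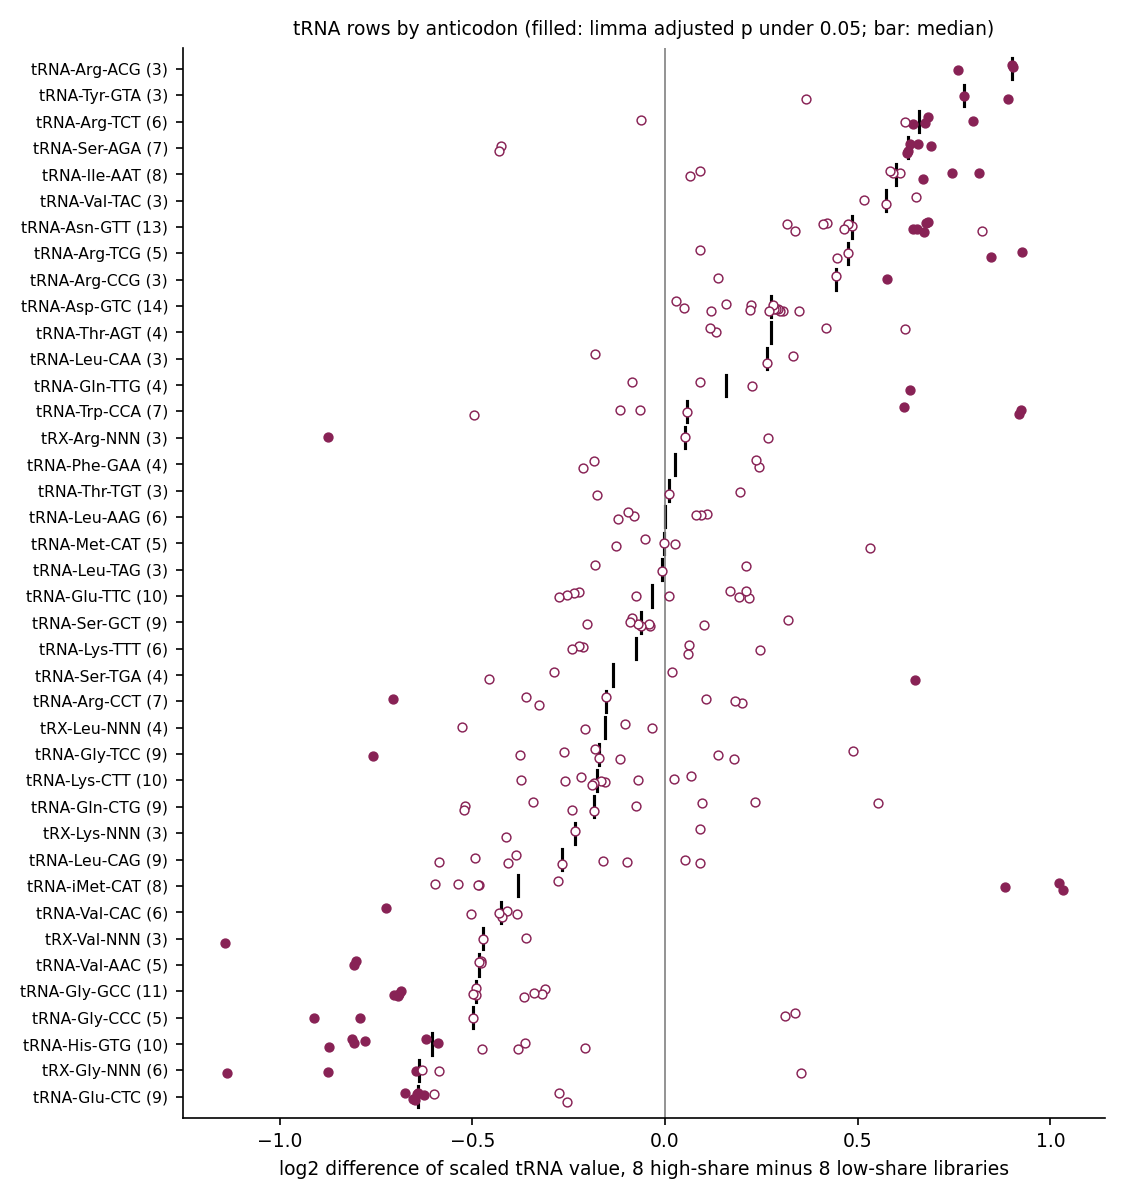
Log2 difference of the scaled value (high-share minus low-share libraries) for tRNA rows grouped by anticodon, with the number of rows in brackets, filled points for rows with a limma adjusted p under 0.05 and bars at medians. Arginine ACG has 3 of 3 rows called higher and glutamate CTC 6 of 9 called lower, and initiator methionine splits into 3 called rows above 0 and 5 below.

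Glycine GCC, glutamate CTC and histidine rows were on the lower side. tRNA-Gly-CCC-2-1 ran from 107 to 215 (median 163) in the high set and from 185 to 439 (median 294) in the low set, and 7 of 8 high-share libraries lay below every low-share one. Its difference was -0.91 ± 0.20 (limma adjusted p = 0.0045; -1.02 and 0.016 with treatment as a covariate). All 11 glycine GCC rows were below 0 (median -0.49), and the 4 that passed had means of 3203 to 3245 in the high set and 5199 to 5213 in the low set. The 3 abundant GCC rows, among them tRNA-Gly-GCC-1-5 with 8.06% of the table (medians 23813 and 34818), did not pass (limma adjusted p = 0.13). Fragments of this tRNA are a leading species of mature sperm. Glutamate CTC had 6 of 9 rows called lower (median -0.64). The other glutamate anticodon, TTC, had 5 of 10 rows above 0 and none called (median -0.03), and its share of the tRNA table was 4.47% ± 1.85 in the high set and 3.28% ± 1.46 in the low set, which did not pass (exact permutation, adjusted p = 0.23). Lower calls were also made for histidine GTG on 6 of 10 rows (median -0.60) and for valine AAC on 2 of 5 (median -0.48).

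Rows named tRX, the naming of tRNA-like loci of low confidence, held the other large falls. tRX-Val-NNN-204-1 had medians of 44.2 and 115 (-1.14 ± 0.26, limma adjusted p = 0.0050; -1.20 and 0.043 with treatment as a covariate), tRX-Und-NNN-362-1 of 10.1 and 17.5 (-0.88 ± 0.29), tRX-Arg-NNN-227-1 of 7.71 and 12.3 (-0.88 ± 0.28) and tRX-Gly-NNN-450-1 of 27.1 and 49.9 (-0.87 ± 0.27). The last 3 had limma adjusted p-values of 0.023 to 0.025 and did not pass with treatment as a covariate.

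The split between higher and lower tRNA rows depended on the scale. With each library divided by the sum of its table, 46 rows were called higher and 6 lower (limma), and the median over all rows moved from -0.07 to 0.21. All 68 rows kept their sign there and 41 their call, and the rows still called lower were 4 of glycine GCC, 1 of glycine CCC and 1 tRX-Gly row. With treatment as a covariate 6 rows passed, 3 in each direction, and all 68 kept their sign, against 89.7% of all rows. On the share as a continuous value over 23 libraries, with treatment as a covariate, 100 rows passed in limma (51 higher, 49 lower). Of the 68 rows 67 kept their call there. Within 0.8 ppm none passed at 4 against 3 libraries (53 had an unadjusted limma p under 0.05), and all 68 kept their sign, against 79.5% of all rows. With miRNA read depth as a covariate none passed (limma), and 57 of 68 kept their sign, against 71.4% of all rows. That depth nearly separated the sets, so the fit can hardly tell depth from set. These fits reuse the 16 libraries, so the sign counts are no separate evidence. Leaving out 1 library gave 19 to 78 called rows, with 19 without 0.8 ppm replicate 2, 34 without air replicate 2 or 0.4 ppm replicate 5, and 44 without 0.8 ppm replicate 4.

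Summed by anticodon, the share of leucine CAA tRNA in the tRNA table was 16.0% to 23.7% (19.4 ± 3.01) in the high set and 9.27% to 17.8% (13.1 ± 2.53) in the low set. The difference of 6.26 percentage points had an exact permutation p of 0.0011 (two-sided, adjusted p = 0.0087 over 16 measures). On the authors' scale its rows did not pass: tRNA-Leu-CAA-2-2, the most abundant tRNA row, differed by 0.27 ± 0.22 (limma adjusted p = 0.42). tRX-Gly rows together fell from 6.73% ± 0.751 in the low set to 5.31% ± 1.01 in the high set (exact permutation, adjusted p = 0.040), a call lost in 10 of 16 fits that left out 1 library. Glycine GCC tRNA, at 29.5% ± 4.36 against 34.1% ± 3.36, did not pass (exact permutation, adjusted p = 0.077). Relabelling within treatment left the adjusted exact permutation p at 0.14 for leucine CAA and 0.15 for tRX-Gly, and relabelling within the column runs at 0.015 and 0.068. Within 0.8 ppm the leucine CAA difference was 6.29 points, and 35 relabellings can give no p below 0.0286 there (exact permutation, adjusted p = 0.34).

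**Figure D5:**
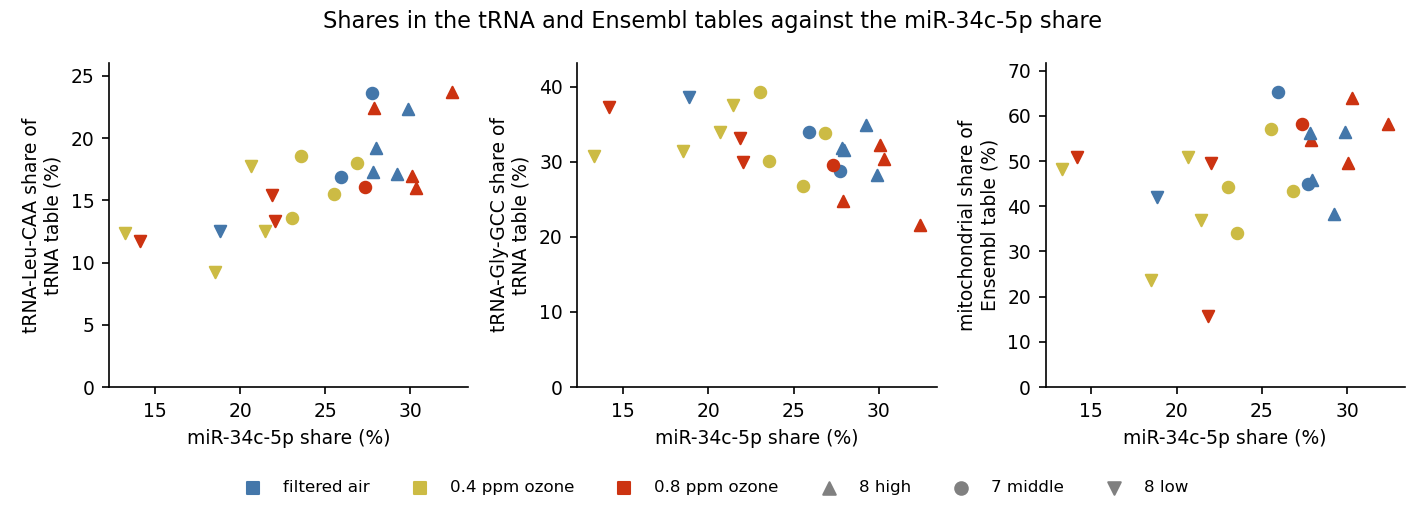
Share of tRNA-Leu-CAA and of tRNA-Gly-GCC in the tRNA table, and of mitochondrial rows in the Ensembl transcript table (%), against the miR-34c-5p share of the 23 libraries, coloured by treatment with symbols for the sets. Leucine CAA shares run from 16.0% to 23.7% in the high set and from 9.27% to 17.8% in the low set, and the mitochondrial shares of the sets overlap.

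piRNA rows, small RNAs that silence transposons in germ cells, differed on few rows. Of 15164 distinct rows 11 were higher (0.0725%) and 18 lower (0.119%) at a limma adjusted p under 0.05, 0.191% of the rows together. The libraries of the sets lay apart on 43 rows (0.284%), with the high set above on 17 (0.112%) and below on 26 (0.171%). The median over all rows was -0.04. Values of this table are fractional, and the depth behind them is unknown.

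Among rows that rose, piR-rno-1114155 was the most abundant, from 1529 to 3227 (median 2148) in the high set and from 333 to 1351 (median 469) in the low set. The difference was 1.81 ± 0.34 (limma adjusted p = 0.034). piR-rno-296757 ran from 350 to 594 against 57.5 to 296 (1.82 ± 0.33, limma adjusted p = 0.026), and the sets lay apart for both. piR-rno-1028771 and piR-rno-62936, at medians of 32.5 and 13.9 in the high set, had the largest rises among rows with a mean of at least 10, 2.63 ± 0.45 and 2.52 ± 0.42 (limma adjusted p = 0.018 and 0.015), again with the sets apart. Their values moved together, with 137 and 45.0 in 0.8 ppm replicate 1 and 20.6 and 5.91 in 0.4 ppm replicate 3. They can thus hold 1 signal more than once, and whether they share reads was not tested.

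The called rows that fell had means of 0.282 to 557 in the high set, and the 5 with the largest differences among rows with a mean of at least 10 had medians of 0.163 to 11.5 there. piR-rno-84956 had medians of 3.82 and 112 (-4.49 ± 0.71, limma adjusted p = 0.014), piR-rno-143901 of 11.5 and 188 (-4.33 ± 0.84, limma adjusted p = 0.040) and piR-rno-2474172 of 6.54 and 129 (-4.07 ± 0.71, limma adjusted p = 0.019). On these 3 rows the sets overlapped. Their values moved together, with 0.0351, 0.0896 and 0.0425 in 0.8 ppm replicate 4 and 404, 652 and 417 in 0.4 ppm replicate 6. These rows can thus hold 1 signal more than once, and whether they share reads was not tested. piR-rno-646283 ran from 0.0298 to 0.730 in the high set and from 3.07 to 77.8 in the low set, which lay apart (-3.68 ± 0.53, limma adjusted p = 0.013). piR-rno-915102 ran from 0.0238 to 14.2 against 5.78 to 44.5 (-3.21 ± 0.54, limma adjusted p = 0.017).

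The abundant piRNA rows did not pass. piR-rno-3104129, with 3.24% of the table, had medians of 354022 and 379848 (-0.14 ± 0.39, limma adjusted p = 0.89). With treatment as a covariate no piRNA row passed in limma, where 1.87 for piR-rno-296757 and 2.11 for piR-rno-1114155 had adjusted p-values of 0.21 and 0.17 and the other 7 rows named above 0.17 to 0.19. With each library divided by the sum of its table, 224 rows passed, 29 of them lower (limma), with the median over all rows moving from -0.04 to 0.22, and 24 of the 29 rows kept their call. Without 0.8 ppm replicate 8, the low-share library nearest the boundary, 343 piRNA rows passed in limma, without 0.4 ppm replicate 2 there were 120, and without 0.4 ppm replicate 5 there were 13.

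In the Ensembl table, whose 617 rows are transcripts to which small reads were assigned, 4 rows were higher (0.648%) and 2 lower (0.324%) in the high-share libraries (limma adjusted p under 0.05, 0.972% of the rows together). On no row did the sets lie apart. The abundant row of the 6 was Stat2, a transcription factor of interferon signalling, which held 12.8% of the table. It ran from 4434 to 13737 (median 9214) in the high set and from 10913 to 52779 (median 29451) in the low set, and 4 of 8 high-share libraries lay below every low-share one. The difference was -1.61 ± 0.32 (limma adjusted p = 0.015), and the middle libraries had a median of 9398. The sources used here do not say which part of the transcript the reads came from, so the row cannot be read as the mRNA's level.

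Rows that rose were Ppp1r12b, a myosin phosphatase subunit (1.54 ± 0.34, limma adjusted p = 0.021), Rpain, an importer of replication protein A (1.52 ± 0.31, limma adjusted p = 0.015), Jpt1 (1.45 ± 0.33, limma adjusted p = 0.029) and Smo, the Hedgehog signal transducer (1.16 ± 0.28, limma adjusted p = 0.046). For Rpain 7 of 8 high-share libraries (27.3 to 108) lay above every low-share library (11.9 to 30.8). Smo had medians of 1019 and 352. The second row that fell, ENSRNOG00000064299, had medians of 12.0 and 37.3 (-1.51 ± 0.37, limma adjusted p = 0.046). With treatment as a covariate none of the 6 passed (Stat2 -1.70 and Rpain 1.62, both at limma adjusted p = 0.18, and the other 4 at 0.20). No row passed in limma without air replicate 2 or without 0.8 ppm replicate 4, both of the high set. No Ensembl row passed either without the 4 libraries of 0.4 ppm or without the 2 libraries of lowest share, and with miRNA read depth as a covariate no piRNA or Ensembl row passed (limma).

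Mitochondrial transcripts were above 0 on 17 of 22 rows (median 0.22 against -0.01 over all rows), and none passed. Their share of the table was 38.4% to 64.1% (52.9 ± 8.02) in the high set and 15.6% to 50.9% (39.8 ± 13.5) in the low set, which did not pass (exact permutation, adjusted p = 0.077). Relabelled within treatment it did not pass (exact permutation, adjusted p = 0.14), and relabelled within the column runs, over 1764 divisions, it passed (exact permutation, adjusted p = 0.0091). Over the 7 middle libraries the slope of the mitochondrial rows on the miR-34c-5p share had a median of -0.21, opposite in sign to the difference between the sets.

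The 7 libraries in neither set gave a check with other animals over a narrower range, 23.0% to 27.7%. There the slope on the miR-34c-5p share had the sign of the difference between the sets for 63 of 68 called tRNA rows (92.6%), against 66.3% of all 273 rows. For piRNA rows it was 24 of 29 (82.8%) against 62.5% of all rows, and for Ensembl rows 6 of 6 against 62.1%. Several tRNA rows share reads and some piRNA rows moved together, so these counts can hold 1 signal more than once. Of the miRNAs 46 of 55 shared the sign (83.6%) against 66.0%, a table for which the share is not independent. Within the 7 libraries no tRNA, piRNA or Ensembl row passed in limma. An unadjusted limma p under 0.05 was met by 25 tRNA rows (9.16%), 1032 piRNA rows (6.81%) and 26 Ensembl rows (4.21%). The lowest shares there, 23.0%, 23.6% and 25.5%, were in 0.4 ppm replicates 1, 4 and 7, with 420480, 526076 and 811867 miRNA reads. The other middle libraries held 583244 to 1286612, the latter in 0.4 ppm replicate 8 at a share of 26.9%. These slopes had no covariate, so treatment and depth were not separated from the share. Their part in the sign counts was not tested.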

How the data were processed

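The authors deposited a scaled read signal made from small RNA reads. Partek, Bowtie 1.0.0 and the build rn6 are named in the submitters' processing notes, and the sources used here do not say how reads were assigned. Each of the 4 tables (miRNA, tRNA, piRNA, Ensembl transcripts) had equal median ratios over the 23 libraries, so each was scaled on its own. Whole reads were recovered from the steps of the miRNA and tRNA values: 100% of values checked were whole within 0.1 of a read. Repeated piRNA rows (15512 of 30676) were fitted once, while 6 repeated miRNA rows and 1 repeated Ensembl row stayed in the fits.

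Libraries were ranked by miR-34c-5p over the column sum of the miRNA table. The members and lists were chosen with earlier results of these data known. Rows above 0 in at least 8 libraries were fitted with limma 3.58.1 (R 4.3.3, trend, robust) on log2(value + 1), high minus low, with Benjamini-Hochberg adjustment over the table, two-sided, at 0.05, and miR-34c-5p left out. Fold changes on that scale understate those of low rows. The script was tested on simulated data. 16 library measures were compared by exact permutation. Rows named are the 5 largest calls in each direction with a mean of at least 10, the 5 most abundant of each table, and for miRNAs the 8 largest differences each way with a mean of at least 100, the 10 most abundant and up to 4 of each list. Added after the data were seen were a depth covariate, the run of columns as a covariate or alone, fits within 0.8 ppm, without 0.4 ppm or without the 2 lowest libraries, and edgeR 4.0.16 on the tRNA reads. edgeR on the recovered miRNA reads called 25 miRNAs higher and 27 lower, 52 of 406 rows, and nothing is read from that count, since the miRNA table chose the sets. The labels give each library a rat number of its own, so p-values measure the spread between rats with 1 library each.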

Additional observations from a re-analysis of the deposited data

Results flagged for a closer look

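Dixon's test on the lowest or highest library of each set, which chance meets in about 1 of 20 groups, marked 10 of 240 groups tested. In the middle set, 0.4 ppm replicate 7 held 5.15% of the tRNA table in valine AAC tRNA against 2.54% to 3.58% in the other 6 libraries, and its miR-26a-5p value of 16143 lay below theirs (17571 to 18657). 0.4 ppm replicate 8 had tRNA-Arg-TCG-4-1 at 46.3 (others 23.1 to 27.2), 0.8 ppm replicate 6 had Jpt1 at 50.7 (others 19.6 to 29.4) and 0.4 ppm replicate 4 had Olr1568 at 50546 (others 5440 to 12562). None of these 4 middle libraries entered the comparison of the sets.

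In the low set, the 10 most abundant Ensembl rows held 64.3% of the table in 0.4 ppm replicate 6 against 78.6% to 84.6% elsewhere. 0.4 ppm replicate 2 had piR-rno-84956 at 3.32 (others 88.0 to 404) and piR-rno-2474172 at 3.97 (others 52.0 to 417), levels inside the range of the high set. Without that library 120 piRNA rows passed in limma in place of 29. In the high set, air replicate 1, which holds the lowest share of that set, had piR-rno-296757 at 350 (others up to 594), and 0.8 ppm replicate 1 had piR-rno-915102 at 14.2 (others 0.0238 to 2.54).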

How the results depend on the processing

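In limma the numbers of rows called varied with the setting. Counts for miRNA, here and below, are out of 406 rows of the table that chose the sets, and nothing is read from them. With treatment as a covariate they were 20 for miRNA, 6 for tRNA and 0 for piRNA and Ensembl rows. On the share as a continuous value over 23 libraries they were 124, 111, 1096 and 16, and with treatment added 114, 100, 835 and 10. With miRNA read depth, which nearly separated the sets, as a covariate they were 0 in all 4 tables. Within 0.8 ppm they were 9 for miRNA and 0 in the other tables. With the column run as a covariate they were 70 for piRNA rows. Within the first run of columns they were 14 for miRNA, 12 for piRNA and 0 for tRNA and Ensembl rows, and within the second 0 for tRNA, piRNA and Ensembl rows. Without the 4 libraries of 0.4 ppm they were 33, 19, 6 and 0, and without the 2 libraries of lowest share 20, 6, 10 and 0. piRNA rows called were 16 for the 11 highest against the 11 lowest, 81 for 5 against 5, 0 when ranked by the scaled miR-34c value (Ensembl 1), 74 with a mean of at least 10 (Ensembl 10), 224 when divided by the table's sum, 150 after quantile normalization (tRNA 40) and 83 with every row as deposited.

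Leaving out 1 library gave 27 to 71 miRNA, 19 to 78 tRNA, 13 to 343 piRNA and 0 to 9 Ensembl rows. The same fits gave differences of 5.65 to 6.92 points for leucine CAA, -1.71 to -1.21 for tRX-Gly, -5.45 to -3.56 for glycine GCC, 0.542 to 0.849 for leucine AAG, 9.70 to 15.2 for mitochondrial rows, -0.421 to 0.360 for selenocysteine TCA, and -0.821 to 0.718 and -0.230 to 2.82 for the 10 most abundant tRNA and piRNA rows. Recovered reads differed by 381570 to 485483 (miRNA) and 76213 to 110007 (tRNA). Glycine GCC and mitochondrial shares passed without air replicate 7 or 0.8 ppm replicate 8, and leucine AAG without the latter.

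Library measures that passed lost their call in several exact permutation tests, with the direction kept. Relabelling within treatment did so for leucine CAA (6.26), tRX-Gly (-1.42), miRNA reads (437354) and tRNA reads (95363). Nothing is read from the calls of the miRNA reads, which come from the table that chose the sets. The same 4 differences were 6.49, -1.87, 460266 and 99701 for 5 against 5 libraries, 6.29, -1.73, 439358 and 117567 within 0.8 ppm, and 6.13, -1.34, 424169 and 101535 without 0.4 ppm. Within the first run of columns they were 6.15, -0.948, 681016 and 135690 and within the second 5.63, -1.18, 301818 and 83780, where at best an exact p of 0.012 and 0.048 can be reached before adjustment. Relabelling within the runs lost tRX-Gly (-1.42) and made the mitochondrial share (13.1) pass. Ranked by the scaled value, tRNA reads differed by 96292. Without the 2 lowest libraries tRX-Gly differed by -1.19 and tRNA reads by 99119.

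Signs turned for some values. With the depth covariate they were -0.053 for miR-20a-5p, -0.033 for miR-34c-3p, -0.21 for tRNA-Trp-CCA-4-1, -0.65 for AY172581.24 and -0.76 for AY172581.9. The abundant piRNA rows piR-rno-3104129, piR-rno-856564, piR-rno-2129341, piR-rno-2225649 and piR-rno-2129443, all below 0 on the authors' scale, had 0.19, 0.19, 0.13, 0.056 and 0.14 when divided by the table's sum and 0.24, 0.083, 0.024, 0.026 and 0.16 after quantile normalization. Ranked by value the first of these and the second had 0.17 each, without the 2 lowest libraries 0.27 each, and with 1 library left out -0.36 to 0.071 each. These 2 rows moved together, with 300675 and 149850 in 0.8 ppm replicate 4 and 1123100 and 561602 in 0.4 ppm replicate 5. They can thus hold 1 signal more than once, which was not tested. piR-rno-2129341 and piR-rno-2129443 had 0.036 and 0.047 with treatment, 0.0055 and 0.019 without 0.4 ppm, and 0.053 and 0.058 without the 2 lowest libraries. With the column run as a covariate piR-rno-3104129 and piR-rno-856564 had 0.0012 and 0.0020. Within the second run piR-rno-3104129, piR-rno-856564, piR-rno-2129341 and piR-rno-2225649 had 0.90, 0.90, 0.18 and 0.051, and piR-rno-2129443 also turned above 0. Olr1568 had 0.22 for 5 against 5 and 0.047 after quantile normalization. Shares of selenocysteine TCA differed by 0.229 ranked by value, 1.41 within 0.8 ppm, 0.835 without 0.4 ppm 0.209 without the 2 lowest libraries and 1.25 within the second run of columns, where glutamate TTC had -0.706 and the 10 most abundant tRNA rows 0.592. The 10 most abundant tRNA rows gave 0.404, 0.250, 0.955 and 0.202 in the same order and 0.194 for 11 against 11, and the piRNA rows -1.57 for 5 against 5. The causes of these changes were not tested, except that fits with fewer libraries have fewer to compare.

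No paired analysis was possible because the replicate numbers follow the order of the samples and mark nothing shared. edgeR on tRNA reads, added after the data were seen, called 29 rows in each direction. The depth of piRNA and Ensembl values is unknown, and low rows of the low set rest on fewer reads.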
